A study of Mus musculus with 12 samples.

Results

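The genes that store, import and export cellular iron were followed in bone marrow-derived dendritic cells (BMDCs) stimulated with lipopolysaccharide (LPS) after the NF-κB inhibitor JSH-23 or without it. The 8 genes were chosen by symbol. They comprise the ferritin chains Fth1 and Ftl1, the exporter Slc40a1, the importers Tfrc, Slc11a1 and Slc11a2, and the iron sensors Ireb2 and Aco1. The 8 are part of 55335 genes in the expression tables. All 8 were among the 14357 genes that passed the filter on low counts. RNA-seq was performed on 12 libraries in 4 groups of 3. WT cells were left unstimulated (replicates 4, 5 and 6) and WTL cells received 100 ng/ml LPS for 3 h (replicates 4, 5 and 6). WT + JSH23 cells received 100 µM JSH-23 for 3 h, and WTL + JSH23 cells received JSH-23 and then LPS at those doses and times (replicates 1, 2 and 3 of each). All 4 groups came from C57BL/6 mice of the CreER genotype with intact Ctcf, and the marrow was grown in GM-CSF for 6 days with medium renewed every 2 days. According to the methods, floating cells were then collected and CD11c-positive cells were taken with microbeads, so the libraries come from selected cells. JSH-23 is a small molecule that blocks nuclear entry of the NF-κB subunit RelA, and LPS is a bacterial cell wall component that activates NF-κB through TLR4. The solvent and any mock incubation of the WT and WTL cells are not given in the sources used here. Nor is it given whether the WT + JSH23 cells were held as long after JSH-23 as the WTL + JSH23 cells. In the LPS comparison with JSH-23 and in the interaction, any such difference in time and LPS cannot be told apart. The labels name no batch, but the groups with and without JSH-23 carry different replicate numbers, so any batch between them and JSH-23 cannot be told apart.

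Iron enters most cells bound to transferrin, which the transferrin receptor (Tfrc) carries into endosomes, where the iron is released and moved to the cytosol by Slc11a2 (DMT1). Its relative Slc11a1 (NRAMP1) moves metal ions across the phagosome membrane of myeloid cells. Surplus iron is stored in a shell of ferritin heavy (Fth1) and light (Ftl1) chains or leaves the cell through ferroportin (Slc40a1), which is known for the recycling of red cell iron by macrophages. When iron is scarce, the regulatory proteins IRP1 (Aco1, which otherwise works as an aconitase) and IRP2 (Ireb2) bind iron-responsive elements, which are hairpins in the untranslated regions of several of these messenger RNAs. Binding in the 5′ untranslated region blocks translation, whereas binding in the 3′ untranslated region of Tfrc protects the RNA from decay. RNA-seq reads only the amount of RNA and not its translation.

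The hairpins of the member transcripts are shown because the iron regulatory proteins bind such elements. The search was strict, so a gene without a match may still be controlled by iron after transcription. The pattern searched was the loop CAGTGN, closed by 5 paired bases on each side and by an unpaired C before them, on the transcript strand of GENCODE M21 transcripts (mm10). The capitals mark the loop CAGTGN. A match was found in the 5′ untranslated region of Fth1 at chr19:9982732-9982760 on the plus strand, of Ftl1 at chr7:45459779-45459807 on the minus strand and of Slc40a1 at chr1:45925465-45925493 on the minus strand.
Fth1: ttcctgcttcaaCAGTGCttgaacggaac
Ftl1: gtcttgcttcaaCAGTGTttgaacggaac
Slc40a1: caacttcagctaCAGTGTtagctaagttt
The 3′ untranslated region of Tfrc held 4 matches on the plus strand, at chr16:32631219-32631247, chr16:32631598-32631626, chr16:32631663-32631691 and chr16:32631710-32631738, given in that order as a to d.
Tfrc a: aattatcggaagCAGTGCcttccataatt
Tfrc b: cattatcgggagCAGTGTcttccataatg
Tfrc c: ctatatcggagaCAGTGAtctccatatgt
Tfrc d: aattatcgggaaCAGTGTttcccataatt
The matches lay in 4 of 5 annotated coding transcripts of Fth1, 2 of 3 of Ftl1, 1 of 4 of Slc40a1 and 1 of 3 of Tfrc. Which transcripts these cells used was not tested. Such a match was present in the 5′ untranslated region of 31 of 21200 genes (0.146%) and in the 3′ untranslated region of 144 of 21193 genes (0.679%). This pattern was not found in the untranslated regions of Slc11a1, Slc11a2, Ireb2 or Aco1. That says only that this pattern, with all 5 bases paired, is not in those regions. Hairpins with imperfect pairing were not searched for. For the promoters, the antioxidant response element TGACNNNGC was searched on both strands in RefSeq windows of GRCm38.p6 from 250 bases before to 50 bases after a gene start. It was in 0 of the 6 member genes that had a window and in 14% of 27025 genes. Slc40a1 and Slc11a2 had no window and were not searched, nor was any sequence outside the windows.

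The libraries held 24664724 to 34837847 expected counts. Values are given as CPM, counts brought to a common library size after TMM scaling, and as TPM, which corrects for transcript length and total depth and not for composition. The TMM factors were lower in the LPS libraries (0.859 to 0.880 in WTL and 0.939 to 0.956 in WTL + JSH23) than in WT (1.08 to 1.09) and WT + JSH23 (1.11 to 1.12). Because of this, the choice of scale matters for small LPS changes. On the log2(TPM + 1) scale the median of all genes moved by -0.26 from WT to WTL and by -0.16 from WT + JSH23 to WTL + JSH23, against -0.05 and -0.02 on the CPM scale. WTL + JSH23 replicate 3 stood apart from the other 2 libraries of its group, with a chi-square of 8.19 and 9.12 per gene against 2.32 to 4.50 for all other pairs of replicates. All 10 dendritic cell markers (among them Itgax, H2-Ab1 and Zbtb46) were above 1 CPM in each group, and they summed to 17831 to 18140 CPM in WT, 20830 to 21963 CPM in WTL, 16925 to 17402 CPM in WT + JSH23 and 18416 to 20071 CPM in WTL + JSH23. Erythroid markers summed to at most 0.400 CPM, with Hba-a1, Hba-a2 and Slc4a1 among those at 0 in every group, while mast cell and basophil markers summed to at most 2.36 CPM and lymphocyte markers to at most 1.87 CPM. The 12 macrophage markers summed to 3257 to 3443 CPM in WT and 3279 to 3441 CPM in WTL, but to 2351 to 2389.5 CPM in WT + JSH23 and 2255 to 2352 CPM in WTL + JSH23. In each group 11 of the 12 were above 1 CPM and none was at 0. The 12 neutrophil markers summed to 262 to 277 CPM in WT, 242 to 249 CPM in WTL, 214 to 229 CPM in WT + JSH23 and 191 to 205 CPM in WTL + JSH23. In bulk RNA, fewer cells of a type and less RNA per cell cannot be told apart.

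The iron genes covered a wide range of levels. Fth1 and Ftl1 were among the most abundant RNAs of these cells, at ranks 1 to 2 and 2 to 8 of all genes by TPM across the 12 libraries, and together they made up 3.27% to 4.75% of all TPM. Slc11a1 followed at 81.5 to 198 TPM, ahead of Slc11a2 at 33.7 to 68.6 TPM and Aco1 at 35.7 to 56.4 TPM. Ireb2 lay at 18.9 to 26.3 TPM. The exporter Slc40a1 had the widest range, from 5.54 to 73.2 TPM, and Tfrc ran from 2.65 to 12.02 TPM. Tfrc was the lowest of the 8 in the other 3 groups, and Slc40a1 in WT. In the plot of CPM by library, the JSH-23 libraries stand apart from the others most for Slc40a1.

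**Figure D1:**
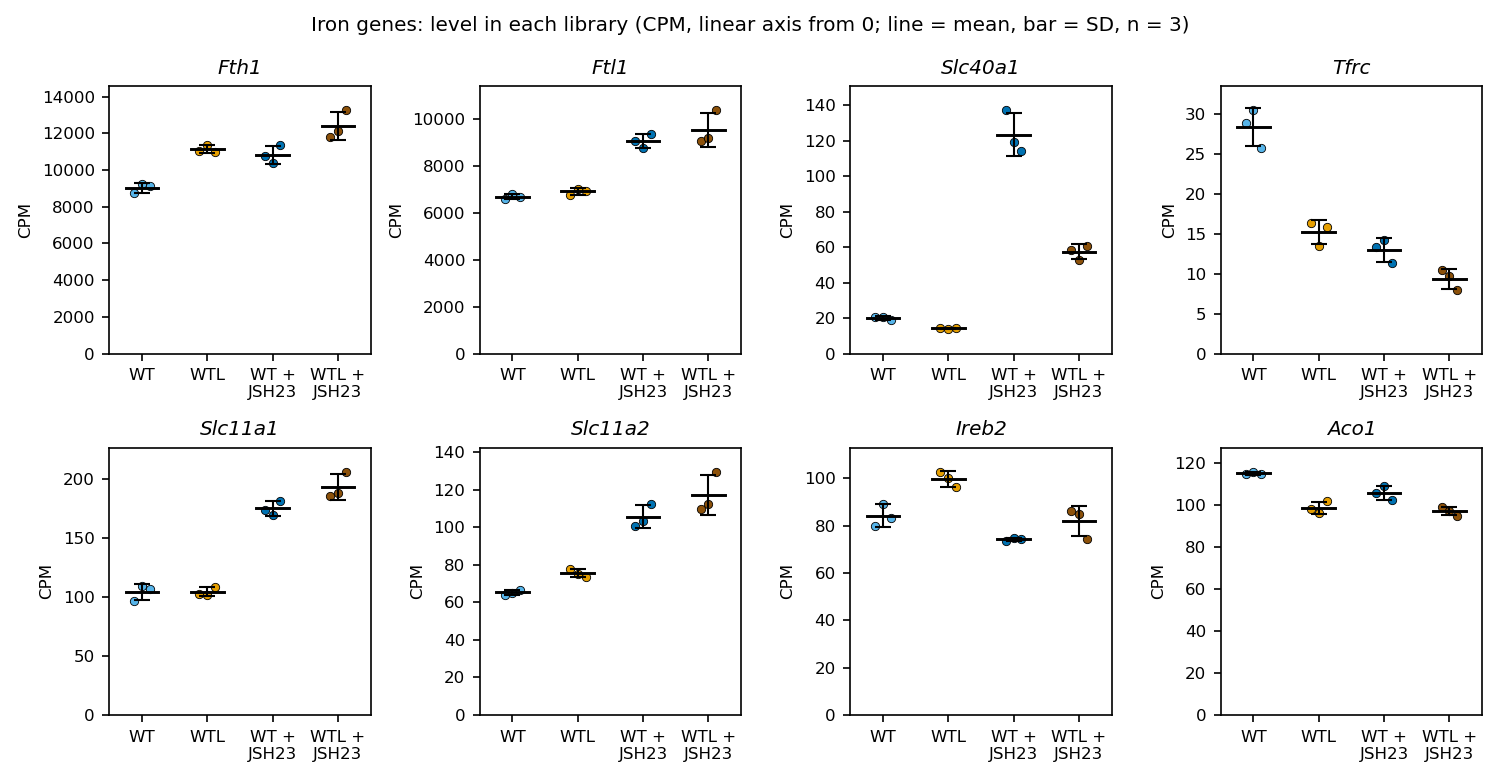
Level of each of the 8 iron genes in the 12 libraries, in CPM on a linear axis from 0, by group. Points are libraries, the wide line is the mean and the bar the SD (n = 3). Slc40a1 lies between 113.98 and 137 CPM in WT + JSH23 and between 18.7 and 20.8 CPM in WT, and Tfrc is highest in WT.

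Ferritin heavy chain RNA rose with JSH-23. Fth1 (ENSMUSG00000024661, chr19:9980598-9985098, plus strand), which carries the ferroxidase site of ferritin, measured 8748, 9251 and 9108 CPM in WT replicates 4, 5 and 6, and 11062, 11392 and 10999.6 CPM in WTL. It measured 10759.5, 10393 and 11369 CPM in WT + JSH23 replicates 1, 2 and 3, and 11803, 12135 and 13257 CPM in WTL + JSH23. All 9 treated libraries lay above the 3 WT libraries, and WTL and WT + JSH23 overlapped. JSH-23 raised Fth1 1.20-fold without LPS (log2 fold change 0.26 ± 0.04 SE, edgeR adjusted p = 2.66e-05) and 1.11-fold under LPS (0.15 ± 0.04, adjusted p = 0.00464). With LPS alone Fth1 was 1.23-fold higher in CPM (0.30 ± 0.04, adjusted p = 1.84e-06), but this direction turned on the TPM scale, where the change was -0.04 (limma adjusted p = 0.372) and, taken relative to the median of all genes, 0.22. The LPS difference under JSH-23 was 0.19 ± 0.04 in CPM (adjusted p = 0.000521) and likewise turned to -0.02 in TPM, or 0.14 relative to the median. The Fth1 interaction (-0.11 ± 0.06 SE, adjusted p = 0.224) passed the test only without WTL + JSH23 replicate 3 (-0.16, adjusted p = 0.0244).

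Ferritin light chain RNA was higher wherever JSH-23 was present. Ftl1 (ENSMUSG00000050708, chr7:45457944-45459884, minus strand), the chain that helps to lay down the iron core, measured 6601, 6805 and 6672 CPM in WT and 6770.1, 7035 and 6926 CPM in WTL. With JSH-23 it measured 9078, 8747 and 9377 CPM, and with JSH-23 and LPS 9049, 9184 and 10372 CPM. All 6 libraries with JSH-23 were above all 6 without it, while the LPS and unstimulated libraries overlapped on either side. JSH-23 raised Ftl1 1.35-fold without LPS (log2 fold change 0.44 ± 0.04 SE, adjusted p = 3.20e-08) and 1.38-fold under LPS (0.46 ± 0.04, adjusted p = 1.01e-08). The LPS differences were 0.05 ± 0.04 without JSH-23 (adjusted p = 0.356) and 0.07 ± 0.04 with it (adjusted p = 0.163), and neither passed the test, although the second did without WTL + JSH23 replicate 1 (adjusted p = 0.0462). On the TPM scale both passed as falls, at -0.30 (limma adjusted p = 6.92e-05) and -0.14 (adjusted p = 0.0167), and relative to the median of all genes -0.04 and 0.02. Of the near-identical ferritin copies, Ftl1-ps1 held 2.22% to 2.47% as many counts as Ftl1, and the other annotated copies at most 7.86 counts in any library. Counts were fractional for Fth1 in 9 libraries and for Ftl1 in all 12, and with which genes reads were shared was not tested.

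The 2 ferritin chains did not move in step. The ratio of Fth1 to Ftl1 TPM within a library, which no scaling between libraries can change, was computed after the values were seen. It was 1.43 ± 0.0224 (SD, n = 3) in WT and 1.71 ± 0.0262 in WTL, with all WTL libraries above all WT libraries. With JSH-23 the ratio was lower, at 1.26 ± 0.0161 in WT + JSH23 and 1.37 ± 0.0230 in WTL + JSH23. The 4 groups did not overlap, and LPS went with a higher ratio of heavy to light chain RNA with JSH-23 (1.09-fold) as well as without it (1.19-fold). Each of these 3-against-3 comparisons had a 2-sided exact permutation p of 0.1, the smallest that such a design allows.

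**Figure D2:**
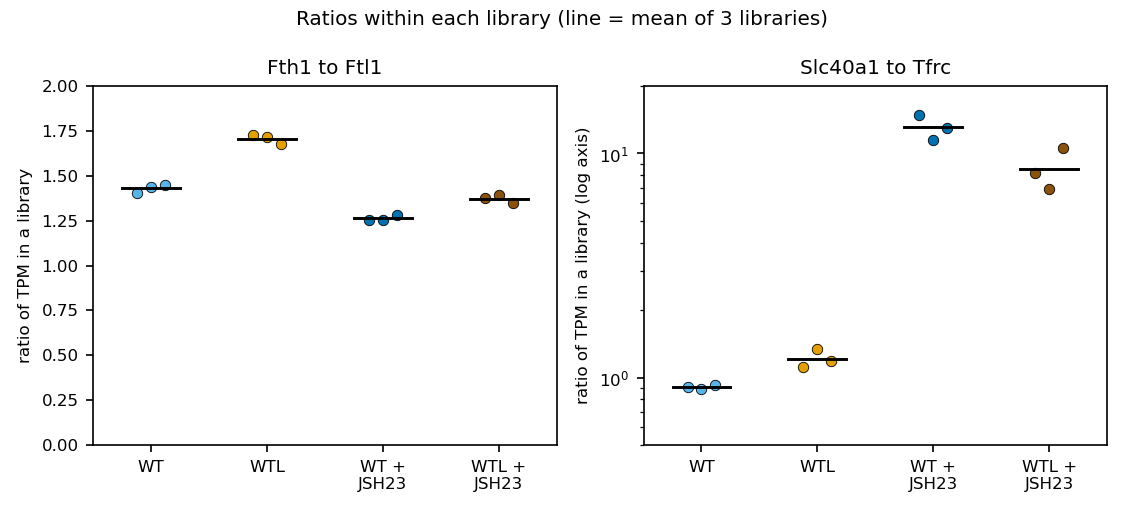
Ratio of Fth1 to Ftl1 TPM (left, linear axis from 0) and of Slc40a1 to Tfrc TPM (right, log axis) in each of the 12 libraries, by group, with the group mean as a line. The Fth1 to Ftl1 ratio is highest in WTL (1.68 to 1.73) and lowest in WT + JSH23 (1.25 to 1.28), and the Slc40a1 to Tfrc ratio is 6.91 or higher in the JSH-23 libraries and at most 1.34 in the others.

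The iron exporter showed by far the widest change of the 8 genes. Slc40a1 (ENSMUSG00000025993, chr1:45908068-45926523, minus strand), which encodes ferroportin, measured 20.4, 20.8 and 18.7 CPM in WT and 14.6, 13.8 and 14.2 CPM in WTL. It measured 137, 119 and 114 CPM in WT + JSH23 and 58.5, 53.0 and 60.9 CPM in WTL + JSH23. No 2 groups overlapped, and every neighbouring pair in the order WT + JSH23, WTL + JSH23, WT and WTL passed the test. JSH-23 raised Slc40a1 6.18-fold in unstimulated cells (log2 fold change 2.63 ± 0.07 SE, adjusted p = 3.81e-17) and 4.04-fold under LPS (2.01 ± 0.08, adjusted p = 8.37e-15). LPS lowered it in both settings, by 1.41-fold without JSH-23 (-0.49 ± 0.08, adjusted p = 2.40e-05) and by 2.15-fold with it (-1.11 ± 0.06, adjusted p = 1.91e-12). Even after LPS, the JSH-23 cells held 2.87-fold more Slc40a1 RNA than untreated WT cells (adjusted p = 4.51e-14). The 2 JSH-23 and the 2 LPS changes kept their direction and passed the test under all alternatives run for them, with the JSH-23 change without LPS between 2.54 and 2.68. The macrophage marker sum was lower, not higher, in the JSH-23 libraries, and its part in the result was not tested.

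The LPS response of Slc40a1 differed with JSH-23. The difference between the 2 log2 LPS changes was -0.61 ± 0.10 SE (interaction adjusted p = 0.000275), so that the fall was the steeper one in the cells where Slc40a1 was high. This interaction passed the test in all 12 fits that left out 1 library, with values from -0.67 to -0.53 and adjusted p values up to 0.00199. Among all genes tested, 8.44% had a lower and 9.54% a higher LPS change with JSH-23 by the same rule. Of the 8 iron genes 2 passed, Slc40a1 downward and Tfrc upward.

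The transferrin receptor moved the other way from the exporter under JSH-23. Tfrc (ENSMUSG00000022797, chr16:32608920-32632794, plus strand) measured 28.9, 30.5 and 25.7 CPM in WT, 16.3, 13.5 and 15.8 CPM in WTL, 13.4, 14.2 and 11.4 CPM in WT + JSH23, and 10.4, 9.75 and 7.95 CPM in WTL + JSH23. All WT libraries lay above the other 9, and only WTL and WT + JSH23 overlapped, where the difference was 1.17-fold (adjusted p = 0.0506). LPS lowered Tfrc 1.88-fold without JSH-23 (log2 fold change -0.91 ± 0.09 SE, adjusted p = 1.41e-08) and 1.38-fold with it (-0.46 ± 0.11, adjusted p = 0.000978). JSH-23 lowered it 2.19-fold without LPS (-1.13 ± 0.09, adjusted p = 1.17e-09) and 1.61-fold under LPS (-0.68 ± 0.11, adjusted p = 1.51e-05). With both agents Tfrc was 3.02-fold lower than in WT (adjusted p = 4.63e-12). The 2 LPS and the 2 JSH-23 falls held under every alternative run for them, the TPM scale included.

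The LPS fall of Tfrc was smaller on the log2 scale with JSH-23, by 0.45 ± 0.14 SE (interaction adjusted p = 0.0308), but this call rested on single libraries. It did not pass without WT replicate 4 (adjusted p = 0.0620), WT replicate 5 (0.0772), WTL replicate 5 (0.107), WT + JSH23 replicate 3 (0.0910), WTL + JSH23 replicate 1 (0.116) or WTL + JSH23 replicate 2 (0.0639), nor with DESeq2 (0.0509) or on the log2(TPM + 0.1) scale (0.0596). Counts of Tfrc were low, from 184 to 1071 per library.

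Export and import RNA can be set against each other within a library. The ratio of Slc40a1 to Tfrc TPM was 0.905 ± 0.0182 (SD, n = 3) in WT, 1.21 ± 0.117 in WTL, 13.1 ± 1.71 in WT + JSH23 and 8.56 ± 1.88 in WTL + JSH23. The ratio was 14.4-fold higher with JSH-23 than without it in unstimulated cells and 6.97-fold higher under LPS. LPS went with a higher ratio without JSH-23 (1.34-fold) and a lower one with it (0.647-fold), as Tfrc fell more than Slc40a1 in the first setting and less in the second. No 2 of these groups overlapped, and each exact permutation p was 0.1, the smallest possible. This ratio, too, was chosen after the values were seen.

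The 2 metal transporters of the NRAMP family both rose with JSH-23. Slc11a1 (ENSMUSG00000026177, chr1:74375195-74386062, plus strand) measured 96.4, 109 and 107 CPM in WT and 103, 102 and 109 CPM in WTL. In WT + JSH23 it measured 174, 169 and 181 CPM, and in WTL + JSH23 185, 188 and 206 CPM. The WT and WTL libraries overlapped, and all 6 libraries with JSH-23 were above them. JSH-23 raised Slc11a1 1.68-fold without LPS (log2 fold change 0.75 ± 0.05 SE, adjusted p = 6.16e-11) and 1.85-fold under LPS (0.89 ± 0.05, adjusted p = 3.92e-12). The LPS difference without JSH-23 was 0.00 ± 0.05 in CPM (adjusted p = 0.963), but -0.35 in TPM (limma adjusted p = 6.87e-05), or -0.09 relative to the median of all genes. With JSH-23 it was 0.14 ± 0.05 (adjusted p = 0.0177) in CPM and turned to -0.11 in TPM, and it no longer passed without WT + JSH23 replicate 1 (adjusted p = 0.0504), WT + JSH23 replicate 2 (0.0778) or WTL + JSH23 replicate 3 (0.0955).

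Slc11a2 (ENSMUSG00000023030, chr15:100387898-100425072, minus strand), the endosomal importer, measured 64.1, 64.9 and 66.9 CPM in WT and 77.8, 75.1 and 73.7 CPM in WTL. It measured 101, 103 and 112 CPM in WT + JSH23 and 109.8, 112 and 129.5 CPM in WTL + JSH23. The JSH-23 libraries were again above all others, while the 2 JSH-23 groups overlapped each other. JSH-23 raised Slc11a2 1.62-fold without LPS (log2 fold change 0.69 ± 0.06 SE, adjusted p = 1.14e-09) and 1.55-fold under LPS (0.63 ± 0.06, adjusted p = 4.17e-09). LPS without JSH-23 went with a change of 0.21 ± 0.06 in CPM (adjusted p = 0.00255) and of -0.22 in TPM (limma adjusted p = 0.00600), so that its direction depends on the scale, and relative to the median of all genes the TPM change was 0.04. With JSH-23 the LPS difference was 0.15 ± 0.05 in CPM (adjusted p = 0.0233) and -0.07 in TPM. That call was lost without WT + JSH23 replicate 1 (adjusted p = 0.115), WT + JSH23 replicate 2 (0.0769) or WTL + JSH23 replicate 3 (0.186). Slc11a2 overlaps the protein-coding gene Gm5475 on the opposite strand, and whether strand was used in counting is not given in the sources used here.

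The 2 sensors changed little. Ireb2 (ENSMUSG00000032293, chr9:54863789-54912530, plus strand) lay at 79.8 to 89.3 CPM in WT, 96.1 to 103 CPM in WTL, 73.3 to 74.9 CPM in WT + JSH23 and 74.4 to 86.0 CPM in WTL + JSH23. WTL was above all other groups. JSH-23 lowered Ireb2 1.22-fold under LPS (log2 fold change -0.28 ± 0.05 SE, adjusted p = 0.000110) and 1.14-fold without LPS (-0.18 ± 0.05, adjusted p = 0.00704), the latter lost without WT replicate 5 (adjusted p = 0.0594). On the log2(TPM + 1) scale neither passed, with adjusted p values of 0.0629 and 0.0521. LPS went with 0.24 ± 0.05 more Ireb2 in CPM (adjusted p = 0.000285) but with -0.08 in TPM, which is 0.18 relative to the median of all genes. Under JSH-23 the LPS value was 0.14 ± 0.05 in CPM (adjusted p = 0.0261) and -0.07 in TPM. This call was lost in 4 of the 12 fits without 1 library, namely WT + JSH23 replicate 1 (adjusted p = 0.0739), WT + JSH23 replicate 3 (0.0556), WTL + JSH23 replicate 1 (0.131) and WTL + JSH23 replicate 2 (0.105). Upper quartile scaling also ended it (0.06, adjusted p = 0.355), as it did the matching Slc11a1 (0.06, adjusted p = 0.324) and Slc11a2 (0.06, adjusted p = 0.304) calls.

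Aco1 (ENSMUSG00000028405, chr4:40143081-40198338, plus strand) had its highest values in WT, at 115 to 116 CPM, against 96.2 to 102 CPM in WTL, 103 to 109 CPM in WT + JSH23 and 95.0 to 98.9 CPM in WTL + JSH23. WT did not overlap any other group. LPS lowered Aco1 1.17-fold without JSH-23 (log2 fold change -0.22 ± 0.04 SE, adjusted p = 2.98e-05) and 1.09-fold with it (-0.12 ± 0.04, adjusted p = 0.0103), the latter lost without WT + JSH23 replicate 2 (adjusted p = 0.0507). Aco1 thus fell where Ireb2 did not, and its LPS fall kept its direction in TPM, at -0.53 without JSH-23 and -0.29 with it. JSH-23 without LPS lowered it 1.09-fold (-0.12 ± 0.04, adjusted p = 0.0125), which did not pass without WT + JSH23 replicate 3 (0.0772) or on the log2(TPM + 1) scale (0.0698). Under LPS the JSH-23 difference was -0.02 ± 0.04 (adjusted p = 0.665).

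**Figure D3:**
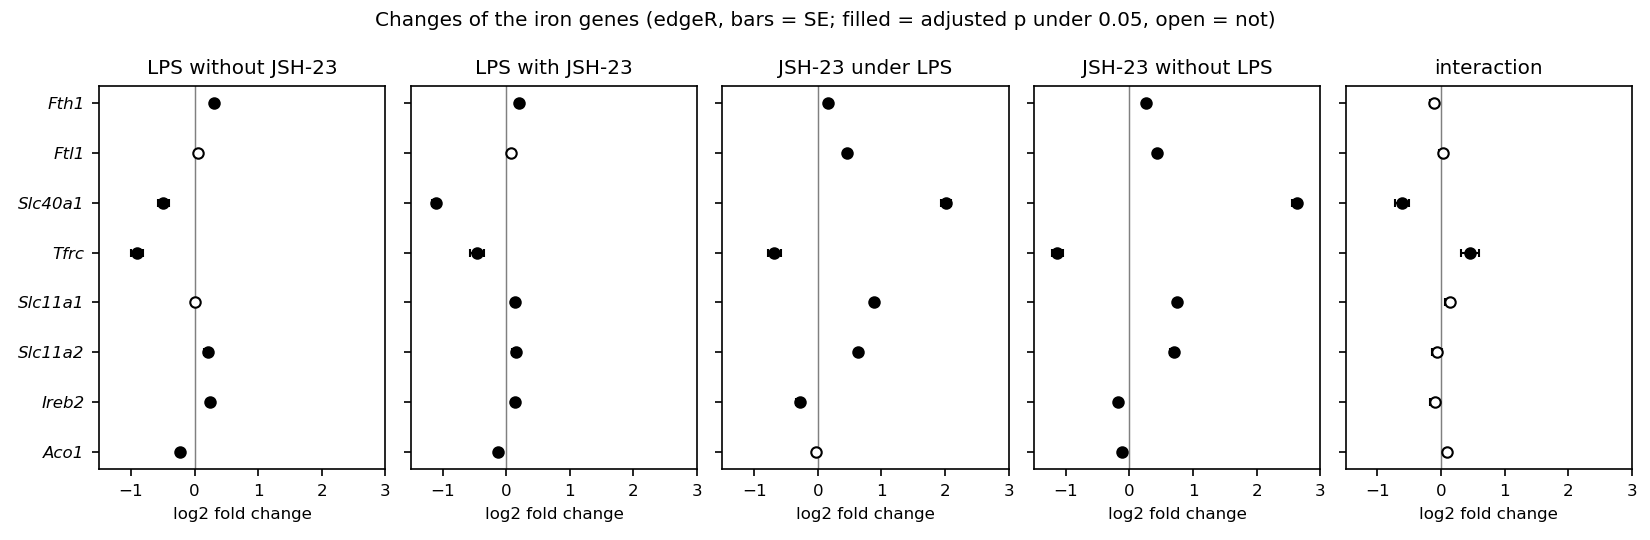
Log2 fold change of each iron gene in CPM with its SE (bars), for LPS without JSH-23 (WTL against WT), LPS with JSH-23 (WTL + JSH23 against WT + JSH23), JSH-23 under LPS (WTL + JSH23 against WTL), JSH-23 without LPS (WT + JSH23 against WT) and the interaction. Filled points have an adjusted p under 0.05. Slc40a1 reaches 2.63 with JSH-23 and Tfrc -1.13, while the filled LPS points right of 0 (Fth1, Slc11a2 and Ireb2, and Slc11a1 with JSH-23) turn negative on the TPM scale.

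The counts over the 8 genes read as follows beside all genes. With JSH-23 in unstimulated cells 5 were higher (Fth1, Ftl1, Slc40a1, Slc11a1, Slc11a2) and 3 lower (Tfrc, Ireb2, Aco1), where 18.8% and 22.1% of the 14357 genes were called in these directions. Under LPS the same 5 were higher and Tfrc and Ireb2 lower, against 24.5% and 24.2%. With LPS alone 3 were higher in CPM (Fth1, Slc11a2, Ireb2, each of which turned negative in TPM) and 3 lower (Slc40a1, Tfrc, Aco1), against 31% and 34.7%, a share close to that of all genes. On the log2(TPM + 1) scale the same comparison called 0 higher and 6 lower, namely Slc40a1, Tfrc, Aco1, Slc11a2, Ftl1 and Slc11a1. The shares of all genes given here are for CPM, and in TPM the median of all genes itself moved by -0.26. Relative to that median, Slc11a2 was at 0.04, Ftl1 at -0.04 and Slc11a1 at -0.09. Slc40a1, Tfrc and Aco1 stayed lower, at -0.50, -0.86 and -0.27. With LPS after JSH-23 4 were higher in CPM (Fth1, Slc11a2, Ireb2 and Slc11a1, all negative in TPM), against 27.4% of all genes. The 3 lower in CPM were Slc40a1, Tfrc and Aco1, against 27.1%. In TPM 0 were higher and 4 lower, namely those 3 and Ftl1, where the median of all genes moved by -0.16. The share of all genes called in TPM is not given here for LPS after JSH-23. Relative to that median, Ftl1 was at 0.02, while Slc40a1, Tfrc and Aco1 were at -1.13, -0.39 and -0.12. Changes of over 2-fold were few: Slc40a1 and Tfrc for JSH-23 without LPS (5.37% of all genes), Slc40a1 for JSH-23 under LPS (7%) and for LPS with JSH-23 (10.3%), and none for LPS alone (16.4%). Comparisons that share a group are not independent of each other. The lower macrophage and neutrophil marker sums of the JSH-23 libraries accompany both JSH-23 comparisons. The neutrophil sum fell without LPS mostly through Mmp8 (mean 221 CPM in WT and 177 CPM in WT + JSH23), while S100a8 was at 12.6 and 13.1 CPM. Of the macrophage markers, Cd68 had higher means with JSH-23 (225 against 177 CPM without LPS and 231 against 162 CPM under LPS). The markers' part in these changes was not tested. Without WTL + JSH23 replicate 3, the library that stood apart, the same 7 genes passed for JSH-23 under LPS, with log2 changes of 0.10 (Fth1), 0.40 (Ftl1), 1.97 (Slc40a1), -0.58 (Tfrc), 0.84 (Slc11a1), 0.56 (Slc11a2) and -0.22 (Ireb2).

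The wider iron pathway was read from lists of 73 genes in 5 roles, of which 60 passed the filter on low counts. Slc40a1 and the ferritin chains were not in these lists. With JSH-23 in unstimulated cells 19 of the 60 rose and 13 fell, and under LPS 20 rose and 9 fell, with median log2 changes of 0.07 and 0.09 against -0.01 and 0.02 for all genes. Of all genes tested, 18.8% rose and 22.1% fell with JSH-23 in unstimulated cells, and 24.5% and 24.2% under LPS. With LPS alone 14 were higher and 30 lower (median -0.21 against -0.05), where 31% and 34.7% of all genes were called, and with LPS after JSH-23 14 and 24 (median -0.09 against -0.02), where 27.4% and 27.1% were. The 13 genes that did not pass the filter include Hamp, the hepcidin gene, and Cd163, the haptoglobin-hemoglobin receptor.

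Among 19 heme genes tested, 8 rose and 4 fell with JSH-23 without LPS (18.8% and 22.1% of all genes), and 9 rose and 3 fell under LPS (24.5% and 24.2% of all genes). Hmox1, which breaks heme open and frees its iron, measured 783 ± 18.1 CPM (SD, n = 3) in WT, 821 ± 24.9 in WTL, 2638 ± 157 in WT + JSH23 and 2935 ± 434 in WTL + JSH23. It rose 3.37-fold with JSH-23 alone (adjusted p = 2.07e-14) and 3.58-fold under LPS (adjusted p = 7.94e-15). Slc48a1, which carries heme out of the phagolysosome, was at 247 ± 7.63, 171 ± 9.33, 417 ± 10.2 and 395 ± 26.3 CPM in the same order, a 1.69-fold and a 2.31-fold rise with JSH-23 (adjusted p = 2.34e-11 and 1.53e-14). Lrp1, the receptor for the heme carrier hemopexin, fell with LPS 2.41-fold (adjusted p = 1.02e-14). In all, LPS alone lowered 13 of the 19 and raised 2, against 34.7% and 31% of all genes.

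Among 9 uptake and transport genes tested, 2 rose and 6 fell with LPS alone, against 31% and 34.7% of all genes. Slc39a14, a zinc transporter that also carries iron not bound to transferrin, rose from 25.5 ± 0.733 CPM in WT to 212 ± 3.56 in WTL, or 8.31-fold (adjusted p = 2.97e-21), and from 43.5 ± 2.00 to 208 ± 14.4 CPM under JSH-23. Lcn2, which captures bacterial iron carriers, rose from 39.4 ± 0.975 to 171 ± 4.77 CPM with LPS and only from 32.9 ± 0.902 to 82.8 ± 9.27 CPM with JSH-23 present (interaction -0.78 ± 0.08 SE, adjusted p = 1.84e-06). Steap3, the endosomal reductase that prepares iron for Slc11a2, fell with LPS from 5.39 ± 0.329 to 1.85 ± 0.194 CPM (adjusted p = 3.46e-08), and Hfe, a partner of the transferrin receptor, from 15.3 ± 1.01 to 6.24 ± 0.298 CPM (adjusted p = 1.58e-10). Tfrc, Steap3 and Hfe thus all fell with LPS, whereas Slc11a2 was higher with LPS in CPM and lower in TPM.

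**Figure D4:**
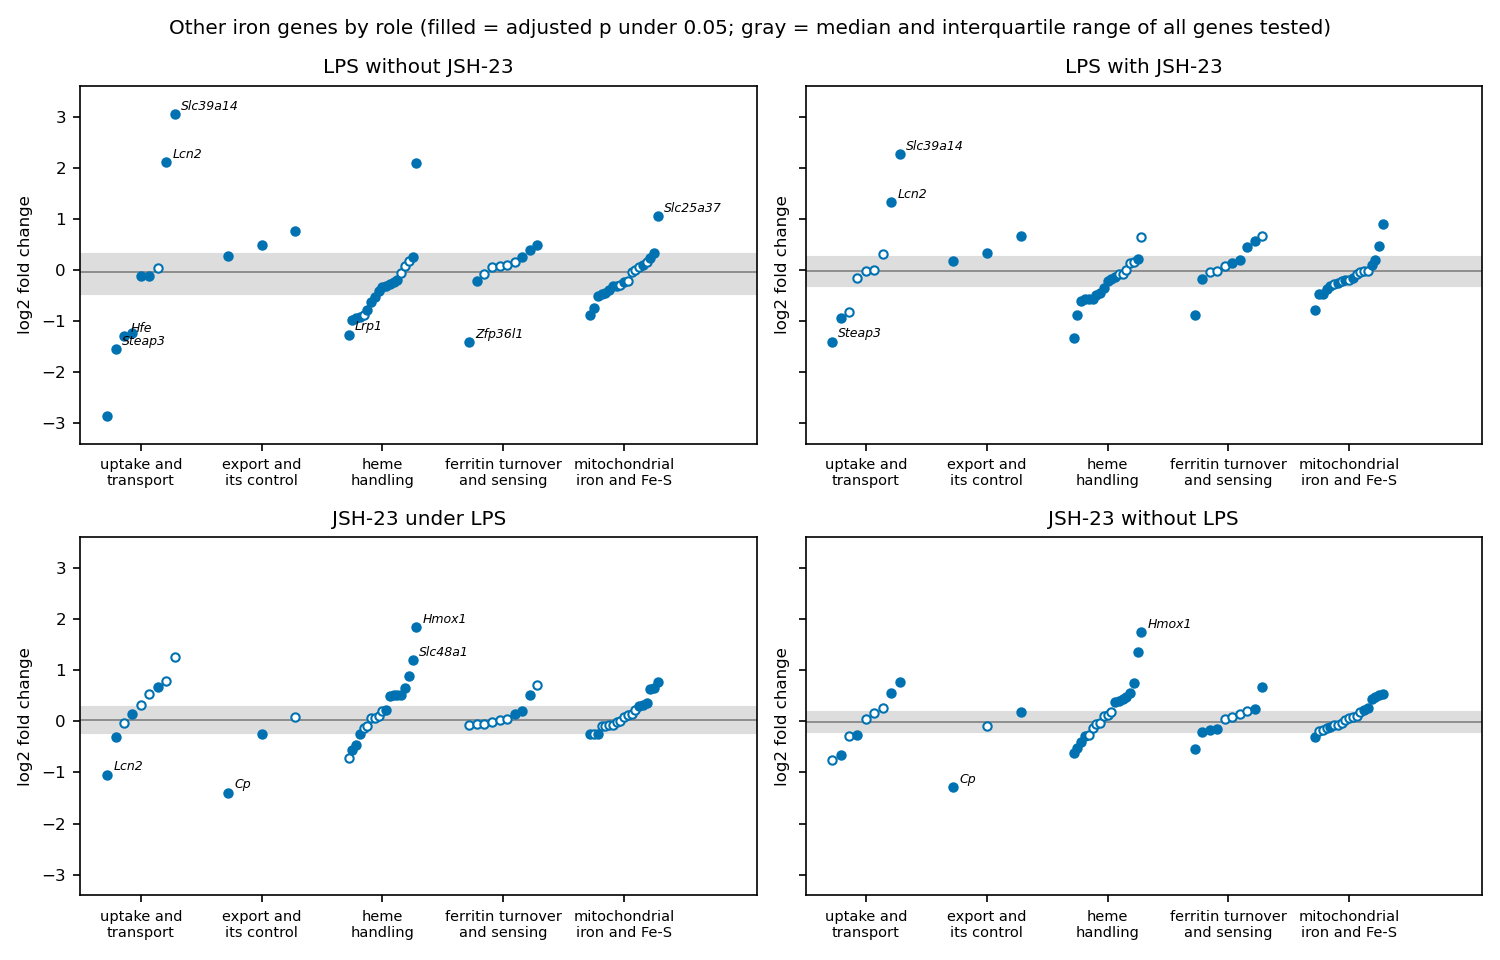
Log2 fold change in CPM of the 60 tested iron genes outside the 8, by role, in 4 comparisons. Filled points have an adjusted p under 0.05, the gray band is the interquartile range of all genes tested and the gray line their median, and names mark genes changed over 2-fold with at least 1 CPM in the higher group. Hmox1 leads the heme genes with JSH-23 (3.37-fold and 3.58-fold), and Slc39a14 the uptake genes with LPS (8.31-fold).

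Of the 3 export genes tested, ceruloplasmin (Cp), the oxidase that prepares exported iron for transferrin, moved against Slc40a1. Cp measured 28.7 ± 1.53 CPM in WT, 48.9 ± 4.40 in WTL, 11.8 ± 0.300 in WT + JSH23 and 18.6 ± 5.19 in WTL + JSH23, which is 2.43-fold lower with JSH-23 without LPS (adjusted p = 1.32e-08) and 2.63-fold lower under LPS (adjusted p = 8.77e-10). Of 10 genes of ferritin turnover and sensing, 2 rose and 4 fell with JSH-23 alone (18.8% and 22.1% of all genes), and 3 rose and 0 fell under LPS (24.5% and 24.2% of all genes). Zfp36l1, which promotes decay of bound messenger RNAs, fell with LPS from 425 ± 7.19 to 160 ± 14.2 CPM (adjusted p = 3.07e-15). Of 19 mitochondrial iron and iron-sulphur genes, 6 rose and 2 fell with JSH-23 in either setting (18.8% and 22.1% of all genes without LPS, 24.5% and 24.2% under LPS), and 4 rose and 9 fell with LPS alone (31% and 34.7% of all genes). Slc25a37 (mitoferrin 1), which brings iron into mitochondria, rose from 68.1 ± 0.346 to 142 ± 5.94 CPM with LPS (adjusted p = 2.29e-15) and from 94.4 ± 1.86 to 175 ± 6.13 CPM with LPS after JSH-23.

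For each of the 8 genes, the protein-coding genes of most similar pattern were sought among 7690 with a mean of at least 10 CPM. Likeness was the root-mean-square difference of centred log2 CPM over the 12 libraries, where 0 is an identical pattern. For Fth1 these were Atp6v1f (0.0405) and Cndp2 (0.0434), and for Ftl1 Zyx (0.0441), followed by its own near-identical copy Ftl1-ps1 (0.0498). For Slc40a1 they were Mmp19 (0.322) and Ptgr1 (0.376), beside a wide range of its own (SD 1.22, against 0.101 to 0.579 for the other members). This distance grows with a gene's own spread, so it does not rank the fits between members. For Tfrc they were Fgd4 (0.124) and Tgfbi (0.126), for Slc11a1 Ikbkg (0.0728) and Hmgn2 (0.0817), and for Slc11a2 Flcn (0.0445) and Fem1b (0.0539). For Ireb2 Capza1 (0.0335) was the closest, and for Aco1 they were Dcaf7 (0.0226) and Zmynd15 (0.0231).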

How the data were processed

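RNA-seq of 12 BMDC libraries in 4 groups of 3 was analysed. The labels name rRNA depletion, whereas the methods describe a poly(A) kit, which was not settled. The authors trimmed reads, aligned them to mm10 with STAR 2.6.0c and estimated gene expected counts and TPM with RSEM on GENCODE. The deposited expected counts are estimates that share reads among similar genes and were rounded here. The deposited TPM values are per transcript length and sum to a fixed total. Genes were filtered by filterByExpr (14357 of 55335 kept), scaled by TMM and tested with edgeR 4.0.16 (quasi-likelihood F-test, 1 mean per group, all 12 libraries, 8 residual degrees of freedom) with Benjamini-Hochberg adjustment over all genes tested. Calls are at an adjusted p under 0.05, and the SE is the log2 fold change divided by the root of F. The methods call the 3 replicates of a condition biological, and whether each came from its own mouse is not given in the sources used here. Alternatives used DESeq2 1.42.0, limma 3.58.1 on log2(TPM + 1) and log2(TPM + 0.1), other scalings and filters, and fits without each library. A simulated count set was used to test the script. The members and lists were chosen with earlier results of these data known. Named genes are the 8 members, list genes past 2-fold with at least 1 CPM, and the 2 genes of closest pattern per member, of which 1 is not reported here. Gene positions are from GENCODE M21, which matched 55154 of the gene identifiers. Replicate numbers were not used to pair the libraries in the main fit. Same-numbered libraries had weak positive correlations of 0.0142 to 0.0614 in their deviations from the group means. Differently numbered ones had -0.0564 to 0.0355, and whether the numbers mark pairs was not settled. Exact permutation tests used SciPy 1.17.1. The planned comparison of protein sequences was not analysed here. Precision is limited by 3 libraries per group and by the low counts of Tfrc and, in WT and WTL, of Slc40a1 (309 to 731 per library).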

Additional observations from a re-analysis of the deposited data

Results flagged for a closer look

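For 2 of the 8 genes JSH-23 altered the size of the LPS change itself, by the test of that difference across all genes, which called 9.54% of genes upward and 8.44% downward. Slc40a1 changed by -0.49 on the log2 scale from WT to WTL and by -1.11 from WT + JSH23 to WTL + JSH23, a difference of -0.614 (edgeR adjusted p = 0.000275). Tfrc changed by -0.91 and -0.46 in the same pairs of groups, a difference of 0.448 (edgeR adjusted p = 0.0308). The Tfrc difference was lost in 6 of the 12 fits that left out 1 library, and the Slc40a1 difference in none of them. With DESeq2 and on the log2(TPM + 0.1) scale the Tfrc difference was also lost. The starting levels also differed: mean Slc40a1 was 123 CPM in WT + JSH23 and 19.96 CPM in WT, and mean Tfrc was 12.97 CPM and 28.4 CPM.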

How the results depend on the processing

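Of 40 combinations of gene and comparison, 20 kept direction and side of the threshold under all alternatives run. All JSH-23 changes of Fth1, Ftl1, Slc40a1, Tfrc, Slc11a1 and Slc11a2 and all LPS changes of Slc40a1 and Tfrc were among these. On the log2(TPM + 1) scale the LPS changes without JSH-23 became -0.0432 (Fth1), -0.297 (Ftl1), -0.349 (Slc11a1), -0.220 (Slc11a2) and -0.0834 (Ireb2), and with JSH-23 -0.0222, -0.140, -0.110, -0.0739 and -0.0650. On log2(TPM + 0.1) they were -0.0432, -0.297, -0.352, -0.225 and -0.0865, and -0.0222, -0.140, -0.110, -0.0749 and -0.0679. The same 2 scales turned the JSH-23 change of Aco1 under LPS to 0.0997 and 0.102, and the interactions of Fth1 to 0.0210 and 0.0210, of Slc11a2 to 0.146 and 0.150 and of Ireb2 to 0.0184 and 0.0185. By construction TPM leaves the composition shift with LPS in place. Relative to the median of all genes, a centring chosen after seeing the data, none of the 30 calls turned on log2(TPM + 1). Upper quartile scaling gave LPS changes of -0.0351 (Ftl1) and -0.0781 (Slc11a1) without JSH-23 and of -0.0125 (Ftl1) with it. For Slc11a1 without JSH-23, no filter gave -0.00647 and a mean of at least 1 CPM gave -0.00656. Leaving out 1 library gave -0.0487 to 0.0372 for that Slc11a1 change, and -0.0381 to 0.0650 for the Ftl1 interaction. The cause was not tested for the last 3 settings. Under a rule of over 2-fold, the iron genes called were 0 for WTL against WT, 1 for WTL + JSH23 against WT + JSH23, 1 for WTL + JSH23 against WTL, 2 for WT + JSH23 against WT and 0 for the interaction. For LPS with JSH-23, 7 iron genes became 4 under upper quartile scaling, 4 on log2(TPM + 1), 4 on log2(TPM + 0.1) and 4 to 7 without 1 library. For the interaction, 2 became 1 with DESeq2, 1 on log2(TPM + 0.1) and 1 to 3 without 1 library. With the replicate number as a block, the iron genes called were 6, 7 and 2, as without it, and the calls over all genes were 9539, 7960 and 2968 against 9437, 7828 and 2582. Every library except WT + JSH23 replicate 1 and WTL + JSH23 replicate 2 correlated best with its own number. Summing the ferritin copies or using unrounded counts moved none of the 5 counts beyond 1.5 times, nor did fitting only the 2 groups compared, which has no interaction.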
